A study of Rattus norvegicus with 2 samples.

Results

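Heat shock proteins and chaperones are described here in single cells of the rat carotid artery. A total of 10 gene symbols was looked up among the 32623 genes of the count table, and 9 were listed (Hspa1b, Hspa5, Hspa8, Hspb1, Hsp90aa1, Hsph1, Dnajb1, Hspe1 and Cryab), while Hspa1a was not. Hsp90aa1, a cytosolic HSP90 gene, had 2 UMIs in all 8977 barcodes, both in the case library. Its 0 UMIs in the control library allow up to 0.12 counts per 1000000 UMIs (CPM), a limit on the reads assigned to it. Whether the gene annotation used caused these low counts is not known, so they do not show that the gene was silent. Levels could therefore be described for 8 genes. Hspa1b is a near-identical copy of Hspa1a, and RefSeq gives Hspa1b as another name of Hspa1a, so the Hspa1b counts are uncertain as to which copy they came from.

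Chaperones help other proteins to fold and keep damaged ones from clumping. In the cytosol, HSP70 proteins bind unfolded stretches, J-domain proteins bring them their clients and HSP110 proteins release the bound nucleotide, while small heat shock proteins hold unfolded proteins without using ATP. Heat shock factor turns on many of these genes after heat, oxidation or cell handling, through heat shock elements in their promoters, whereas the chaperones of the endoplasmic reticulum answer to the unfolded protein response. In arteries, small heat shock proteins are known as partners of the contractile actin cytoskeleton of smooth muscle.

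The data were UMI counts from the 10x Genomics platform for 2 libraries of Sprague-Dawley (SD) rats, 1 of each group. The control group was the untreated left carotid artery and the case group the right carotid artery of the same 2 rats after balloon injury, a model of the narrowing that follows stenting, taken 28 days after surgery. The labels give an age of 12 weeks for both. The arteries of the 2 rats were pooled in each library, and cells were released with trypsin and collagenase, so differences between rats cannot be seen and there was no replicate check. No test was possible, and all intervals below are exact 95% intervals that cover counting error only.

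Promoter sequences were given for 7 of the 10 genes (RefSeq, build GRCr8), and stretches of 6 of them are shown because heat shock and endoplasmic reticulum stress elements are the textbook control sites of these genes. The 250 bases before the annotated start were searched for 2 forms of the heat shock element core, GAANNTTC and TTCNNGAA, each of which reads the same on both strands, with overlapping matches counted separately. Of 33469 promoters of this length, 13.5% held at least 1 match and 1.75% held 2 or more. The promoters of Hspa8, Hspb1, Hsph1, Dnajb1 and Hspe1 held matches, 4, 2, 3, 1 and 3 of them. The stretches below run 5′ to 3′ on the gene's strand with the matches in capitals.
Hspa8 (chr8:50080286-50080486, plus strand): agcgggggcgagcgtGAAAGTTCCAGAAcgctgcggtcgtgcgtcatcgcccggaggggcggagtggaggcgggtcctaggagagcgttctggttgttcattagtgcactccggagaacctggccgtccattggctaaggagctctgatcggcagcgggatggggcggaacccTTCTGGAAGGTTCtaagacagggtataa
Hsph1 (chr12:10427248-10427359, plus strand): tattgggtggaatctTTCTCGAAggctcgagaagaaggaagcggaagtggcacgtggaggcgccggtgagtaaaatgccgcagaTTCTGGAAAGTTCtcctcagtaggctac
Hspb1 (chr12:26432388-26432445, minus strand): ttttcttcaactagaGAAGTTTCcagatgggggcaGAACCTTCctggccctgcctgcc
Dnajb1 (chr19:41431142-41431167, minus strand): gcatcgggaggggcgGAAGGTTCtgg
Hspe1 (chr9:64084247-64084294, plus strand): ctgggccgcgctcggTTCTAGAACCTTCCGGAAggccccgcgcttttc
Hspa5 held no such match. It is shown for the endoplasmic reticulum stress element, here CCAAT and CCACG with 9 bases between them, searched on both strands, which 0.0657% of all promoters held.
Hspa5 (chr3:38452958-38453006, plus strand): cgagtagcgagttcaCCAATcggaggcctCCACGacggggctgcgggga
The given Hspa1a promoter held neither motif in this window. A match describes the letters and does not show that a factor binds there.

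The libraries held 24968329 UMIs in 3321 control barcodes and 28232614 UMIs in 5656 case barcodes, and 2742 and 4930 barcodes passed quality control. Cells were put into classes by marker genes, which gave 1200 control and 2672 case smooth muscle cells, 733 and 1414 fibroblasts, 51 and 206 endothelial cells, 34 and 91 macrophages, and 17 and 34 Schwann cells. Markers held out of the gate, summed for each class, were at most at 12.6% of their own level in any other class, though single markers reached higher shares, such as Ncam1 at 133 CPM in case Schwann cells and 29.1 CPM in case smooth muscle cells. Among the 34 control macrophages, 1 barcode lay at the edge of the gate, with a fibroblast score of 0.484 of its macrophage score where 0.5 was the limit, and macrophage levels are also given without it where it held much of a gene. The control cells were deeper, with a median of 11894 against 5420 UMIs in smooth muscle cells and 11226 against 5202 in fibroblasts. Among barcodes, 21 sequences occurred in both libraries.

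The HSP70 gene Hspa1b, the stress-inducible member of the family, was highest in fibroblasts. Its level in fibroblasts was 8014 CPM in control (interval 7953 to 8074) and 10256 CPM in case (10185 to 10327). Endothelial cells followed with 5778 and 4139 CPM, then smooth muscle cells with 2415 and 3036 CPM. Fibroblasts thus stood 3.32-fold over smooth muscle cells in control and 3.38-fold in case. Macrophages (1724 and 673 CPM) and Schwann cells (1696 and 860 CPM) were lowest. Without the barcode at the edge of the gate, control macrophages had 306 CPM (interval 243 to 381), below the control Schwann interval of 1427 to 2000 CPM. A case macrophage barcode with a fibroblast score of 0.413 of its macrophage score held 110 of the 351 case Hspa1b UMIs. Without that barcode case macrophages had 473 CPM (interval 416 to 537). It also held 34 of their 177 Hsph1 UMIs and 40 of their 475 Hspa8 UMIs.

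Hspa8, the constitutive HSP70 of the cytosol, was also highest in fibroblasts, with 3290 CPM in control and 2493 in case. Endothelial cells had 2239 and 1273 CPM, macrophages 1675 and 911 CPM, and smooth muscle cells 1401 and 1069 CPM. Schwann cells had 1395 and 502 CPM, on 116 and 49 UMIs. Hspa8 was lower in case than in control in each of the 5 classes, whereas Hspa1b was not.

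Hsph1 encodes an HSP110 protein that recharges HSP70 by exchanging its nucleotide. Its level was 1697 CPM in control and 2377 CPM in case fibroblasts, and 469 and 803 CPM in smooth muscle cells. Endothelial cells had 977 and 1035 CPM and macrophages 444 and 339 CPM. Schwann cells held 12 and 20 Hsph1 UMIs in all. In the control library the log2 ratio of macrophages to smooth muscle cells was -0.08 (interval -0.35 to 0.18), but without the barcode at the edge of the gate macrophages had 325 CPM (interval 260 to 402), below smooth muscle cells.

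Dnajb1, the J-domain partner that stimulates HSP70, was close in the 3 vessel wall classes. It was at 313 and 400 CPM in smooth muscle cells, 389 and 483 CPM in fibroblasts and 437 and 367 CPM in endothelial cells, control first. Macrophages had 199 and 171 CPM. In Schwann cells it was at 349 CPM in control and 51 CPM in case, but on 29 and 5 UMIs.

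The small heat shock gene Hspb1 was carried at similar levels by all 3 vessel wall classes. It was at 3679 and 2984 CPM in smooth muscle cells, 4050 and 2826 CPM in fibroblasts, and 4966 and 2924 CPM in endothelial cells. In the case library, endothelial and smooth muscle levels did not differ beyond counting error, with a log2 ratio of -0.03 (interval -0.08 to 0.02). Macrophages were lowest, at 956 and 290 CPM, and control macrophages had 314 CPM without the barcode at the edge of the gate.

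Cryab, the small heat shock protein αB-crystallin, had the widest range over classes. Schwann cells held 5640 CPM (interval 5141 to 6174) in control and 4186 CPM (3790 to 4612) in case, 8.73-fold and 8.79-fold over smooth muscle cells. Smooth muscle cells had 646 and 476 CPM and fibroblasts 710 and 381 CPM. Macrophages had 146 and 21.1 CPM, on 41 and 11 UMIs (35 of the 41 in the barcode at the edge of the gate), and endothelial cells 31.6 and 41.8 CPM, on 13 and 43 UMIs. At an equal depth of 2000 UMIs a cell, Cryab was found in 14 of 14 control and 22 of 24 case Schwann cells, in 60.3% and 50.8% of smooth muscle cells, and in 7.84% and 6.09% of endothelial cells, a class that serves as the background level for this gene. Without thinning, the smooth muscle shares were 84.7% and 75.9%, and the endothelial shares 23.5% and 9.71%.

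Hspa5 encodes BiP, the HSP70 of the endoplasmic reticulum, and Hspe1 the co-chaperonin that caps the mitochondrial chaperonin. Hspa5 was at 3162 and 3432 CPM in fibroblasts, 2970 and 2548 CPM in Schwann cells, 1954 and 2282 CPM in endothelial cells, 1746 and 2901 CPM in macrophages, and 1801 and 1743 CPM in smooth muscle cells. In the control library macrophages and smooth muscle cells did not differ beyond counting error (log2 ratio -0.05, interval -0.18 to 0.08). Hspe1 was at 231 and 154 CPM in fibroblasts, 125 and 107 CPM in smooth muscle cells, 119 and 68 CPM in endothelial cells and 96 and 40.3 CPM in macrophages. In the control library endothelial and smooth muscle cells did not differ in Hspe1 beyond counting error (log2 ratio -0.07, interval -0.51 to 0.34). Control macrophages had 57.4 CPM of Hspe1 (interval 32.1 to 94.7) without the barcode at the edge of the gate.

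**Figure D1:**
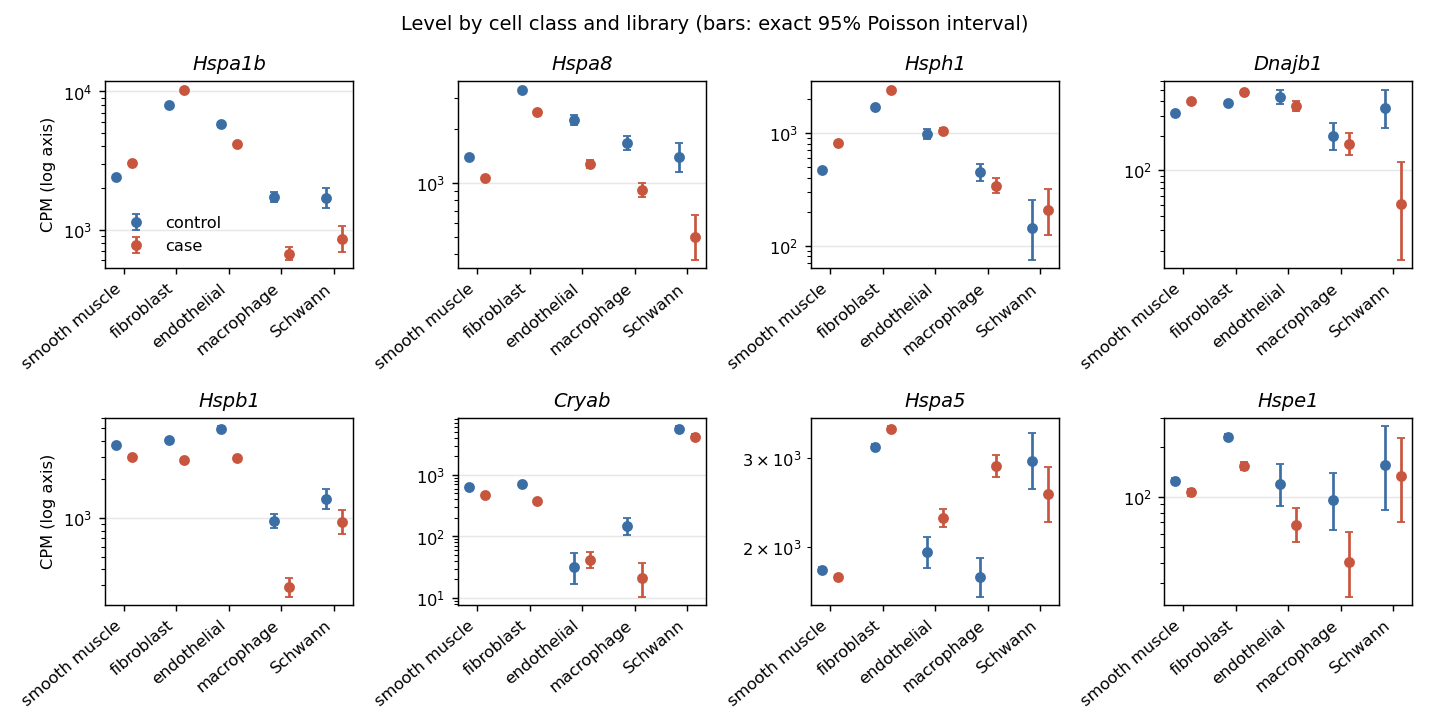
Level of each gene in CPM (log axis, a separate scale for each gene) in 5 cell classes, with control in blue and case in red and exact 95% Poisson intervals as bars. Hspa1b, Hspa8 and Hsph1 peak in fibroblasts in both libraries, and Cryab peaks in Schwann cells at 5640 and 4186 CPM.

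The injured and the uninjured artery were next compared within each class, and a gene whose mean level reached 50 CPM was counted as higher or lower where case and control differed by 1.5-fold or more. In smooth muscle cells 1 of 8 members was higher and 0 were lower, against 7.68% higher and 15.4% lower of all 2525 genes. In fibroblasts 0 were higher and 1 was lower, against 6.68% and 13.9% of 2367 genes. With TMM factors, a scaling that assumes most genes do not change, the background was 11.4% higher and 10.2% lower in smooth muscle cells and 8.94% and 11.2% in fibroblasts. The members' counts were near these shares. The members' median log2 change was -0.14 in both classes, and the median of all genes was -0.12 and -0.07.

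In smooth muscle cells the member past 1.5-fold was Hsph1, with a log2 change of 0.77 (interval 0.73 to 0.82). Hspa1b and Dnajb1 were higher in case by less, at 0.33 and 0.35. Hspa8 (-0.39), Hspb1 (-0.30), Hspe1 (-0.23) and Cryab (-0.44) were lower, and Hspa5 was nearly level at -0.05. These 7 were all within 1.5-fold with all depths together, but several turned or passed it in bins of depth given further on.

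In fibroblasts Cryab was the member past 1.5-fold, lower at -0.90 (interval -0.96 to -0.83), and Hspe1 was just short of it at -0.58. Hspb1 and Hspa8 were lower at -0.52 and -0.40. Hsph1 (0.49), Hspa1b (0.36), Dnajb1 (0.31) and Hspa5 (0.12) were higher, all within 1.5-fold, and the signs of Hspa1b, Dnajb1, Hspa8 and Hspb1 turned in some bins of depth given further on. The share of fibroblasts with a Cryab UMI at equal depth was 36.9% in control (interval 33.3 to 40.6) and 22.7% in case (20.5 to 25), both above the endothelial shares. The same shares for Hsph1 were 74.7% and 83.9%, and in smooth muscle cells 50.2% and 69.1%.

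In endothelial cells 0 of the 7 members at 50 CPM or more were higher and 3 were lower, against 18.3% and 25.3% of 2707 genes. The lower ones were Hspa8 (-0.81), Hspb1 (-0.76) and Hspe1 (-0.81, on 49 and 70 UMIs). TMM factors moved all 3 to within 1.5-fold and the background to 28.7% higher and 15.6% lower. Hspa1b was at -0.48 (interval -0.55 to -0.41). Of the clusters described below, an endothelial one led by Pkhd1l1, F5 and Gja5 held 54 control and 161 case cells. In it Hspa8 (-0.57), Hspb1 (-0.44) and Hspa1b (-0.17) were within 1.5-fold. Hspe1 was at -0.78 there and Hsph1 at 0.38. The endothelial cluster led by Ccl21, Fabp4 and Plvap held 10 control but 156 case cells. The part of this shift between clusters was not tested. The summed level of 17 immediate early genes, which enzymatic release of cells is known to raise, was 31697 CPM in control and 20265 CPM in case endothelial cells, and its part in these differences was not tested. The same sums were 17329 and 16130 CPM in smooth muscle cells and 16472 and 15941 CPM in fibroblasts.

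In macrophages 1 of 8 members was higher and 5 were lower, against 15.7% and 16.7% of 2513 genes. Hspa5 was the higher one, at 0.73 (interval 0.58 to 0.88). Cryab (-2.79), Hspb1 (-1.72), Hspa1b (-1.36), Hspe1 (-1.25) and Hspa8 (-0.88) were lower. This count rested largely on the control barcode at the edge of the gate, of 19965 UMIs. Among the 34 control macrophages it held 405 of the 485 Hspa1b UMIs and 187 of the 269 Hspb1 UMIs. It also held 35 of the 41 Cryab UMIs and 12 of the 27 Hspe1 UMIs. The immediate early genes summed to 7051 CPM in control and 5465 CPM in case macrophages. Without the barcode with the highest member share in each class and library, 1 member was lower and 2 were higher, and Hspa1b turned to 1.04. Hspa5 was not carried by that barcode, with 0.72 in that setting. It was positive in all 12 alternatives, from 0.38 to 0.79, but within 1.5-fold at 4000 to 10000 UMIs (0.38) and when each cell weighed the same (0.48).

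**Figure D2:**
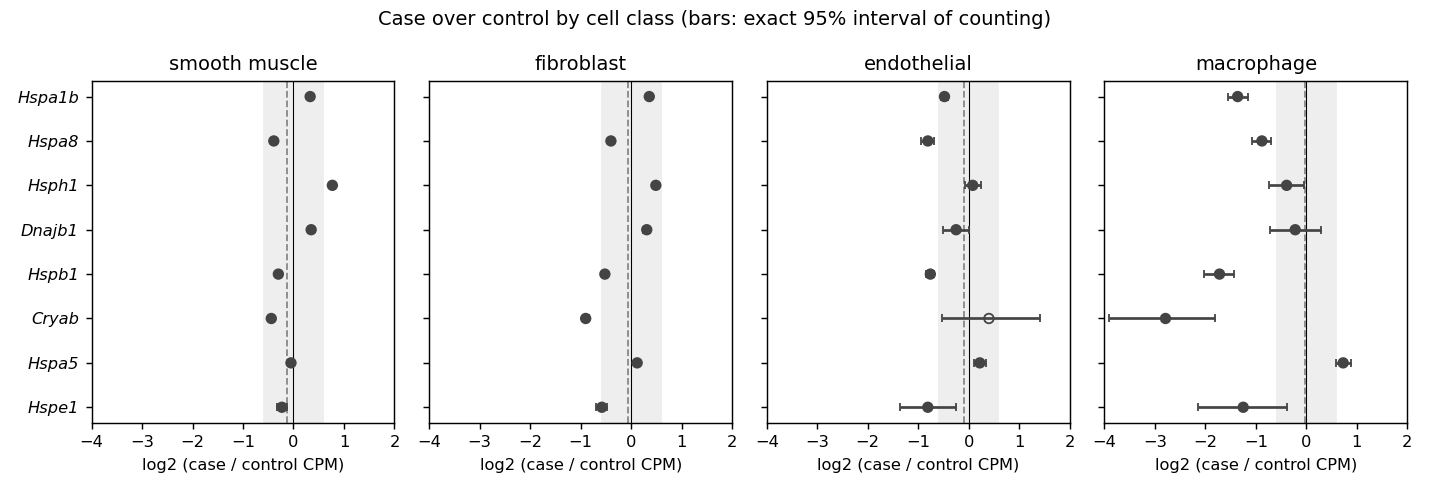
Log2 ratio of case to control CPM for each gene in 4 cell classes, with exact 95% intervals as bars. The grey band spans 1.5-fold either way, the dashed line is the median of all genes, and the open circle is a gene under 50 CPM. Hsph1 is past the band in smooth muscle cells (0.77) and Cryab in fibroblasts (-0.90), while macrophage intervals are wide.

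Because the control cells were deeper, the ratios were also read within bins of barcode depth. In barcodes of 4000 to 10000 UMIs (245 control and 930 case fibroblasts), fibroblast Hspa1b was at 13499 CPM in control and 10092 CPM in case, so that its direction turned (log2 -0.42, interval -0.44 to -0.40). It was also lower in case at 10000 UMIs or more (6519 and 5445 CPM) and higher only under 4000 UMIs (7186 and 15129 CPM). The higher Hspa1b of all case fibroblasts was thus not found in either of the 2 deeper bins. Dnajb1 turned as well at 4000 to 10000 UMIs, to -0.28. Hspb1 (-1.30), Hspa8 (-0.90) and Hspe1 (311 and 155 CPM) were lower there by more than over all fibroblasts. Under 4000 UMIs these genes had the other sign. There Hspb1 was at 0.20 (interval 0.06 to 0.34), Hspa8 at 0.59 (0.41 to 0.78) and Hspe1 at 0.56 (-0.16 to 1.36). Hspa5 was at 1.32 (interval 1.11 to 1.54) in that bin and at 0.23 and 0.02 in the deeper ones.

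Hsph1 was higher in case in all 3 depth bins of both classes, though not in each cluster described below. In smooth muscle cells its log2 change was 0.78, 0.70 and 0.83 from the shallowest to the deepest bin, and in fibroblasts 1.42, 0.35 and 0.21. Cryab was lower in case fibroblasts in the 2 deeper bins (-0.95 and -0.55) but not in the shallowest, where it rested on 63 control and 400 case cells (0.54, interval -0.06 to 1.21). In smooth muscle cells Hspa1b was higher in case at 1.12, 0.12 and 0.50, and Hspb1 was higher in the shallowest bin (0.67) but lower in the others (-0.40 and -0.35). Hspa8 was likewise at 0.32 (interval 0.17 to 0.48) in the shallowest bin and at -0.50 and -0.23 in the others. Cryab in these cells was at 0.27, -0.12 and -0.62, so its lower level in case rested mainly on the deepest bin. Hspe1 was at 1.00 (interval 0.38 to 1.67), -0.11 and -0.24. Hspa5 was at -0.63 (interval -0.72 to -0.53), -0.25 and 0.04, so it was nearly level only in the deepest bin.

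**Figure D3:**
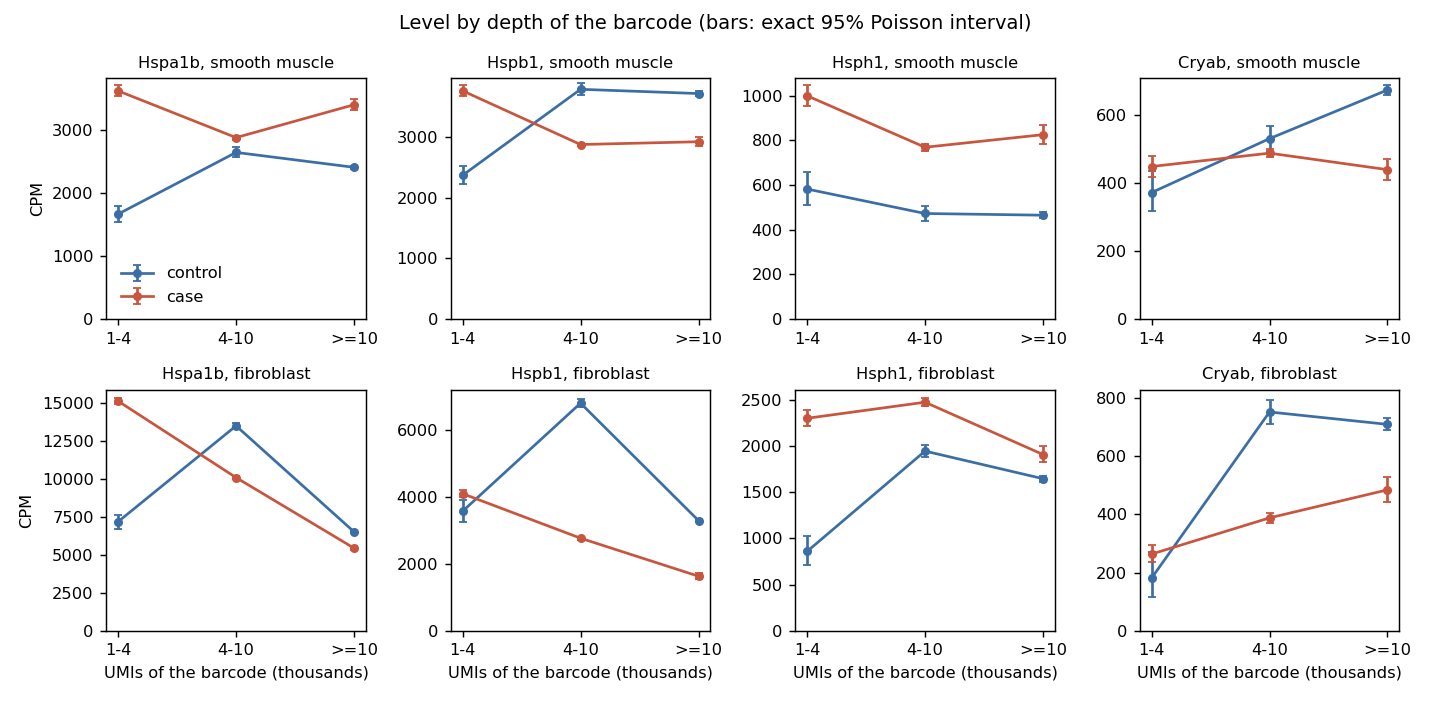
Level in CPM of Hspa1b, Hspb1, Hsph1 and Cryab in smooth muscle cells (top) and fibroblasts (bottom) by the UMIs of the barcode (units of 1000), control in blue and case in red, with exact 95% Poisson intervals. Fibroblast Hspa1b crosses between the libraries, from 7186 against 15129 CPM in the shallowest bin to 13499 against 10092 CPM in the middle one, whereas Hsph1 is higher in case in each bin.

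Cells were also clustered without the chaperone and immediate early genes, which split smooth muscle cells and fibroblasts further, and the 3 clusters of each with a median over 2000 UMIs and more than 50 cells in both libraries are described. In the smooth muscle cluster that held most control cells (701 control and 124 case, with Igfbp2, Acta1 and Rrad among its leading genes), Hspa1b was level at 2603 and 2586 CPM. It was nearly level at 3703 and 3555 CPM in a second cluster (134 and 1193 cells, with Tmem204 and Rasl12). In the other (211 and 1246 cells, with Pcsk1 and Nav2) it was at 1533 CPM in control and 2654 CPM in case, a log2 change of 0.79 (interval 0.74 to 0.84). Hsph1 in these 3 clusters changed by 0.58, 0.12 and 1.02. Cryab was lower in case in all 3, at -0.36, -0.30 and -0.49. Another smooth muscle cluster (296 control and 212 case cells) was left out by the depth limit, with medians of 1440 and 1700 UMIs. Its log2 changes were 1.29 for Hspa1b, 1.22 for Hsph1 and -0.08 for Cryab (interval -0.46 to 0.29).

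Among the fibroblast clusters, the one with 52 control and 70 case cells, led by Trh, Dnaaf1 and Dact2, had a low Hspa1b level of 3231 and 1115 CPM. The cluster with most fibroblasts (625 and 719 cells, with Alpl) had 8249 and 10066 CPM, and the one led by Cilp, Il1rl1 and Zfhx4 (51 and 730 cells) had 12208 and 10884 CPM. In the same order, Cryab was at 660 and 68.9 CPM, at 767 and 600 CPM, and at 390 and 182 CPM. Cryab was lower in case in each of the 3, but in the cluster with most fibroblasts by less than 1.5-fold (-0.35, interval -0.42 to -0.29). Hsph1 did not have 1 direction in them. In the same order its log2 change was -0.46 (interval -0.63 to -0.29), 0.61 and 0.02 (interval -0.07 to 0.12). Hspa8 and Hspb1 were lower in case in all 6 clusters within the depth limit. Their log2 values ran from -0.23 to -0.93 for Hspa8 and from -0.11 to -1.28 for Hspb1. In the shallow smooth muscle cluster left out they were not lower. Hspa8 was at 0.16 there (interval -0.05 to 0.37) and Hspb1 at 0.10 (interval -0.03 to 0.22). The Schwann cluster (28 and 80 cells) was wider than the Schwann class by markers, and its Hspa1b was at 5192 and 5020 CPM instead of 1696 and 860 CPM, while its Cryab was still high at 4232 and 3622 CPM. The cluster led by Olr1 and Pdgfb held 65 control cells, with 4130 CPM of Hspa1b, but 1 case cell, so no comparison was made.

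How evenly cells carried Hspa1b differed between the classes. At 2000 UMIs a cell the middle 50% of control fibroblasts held 1 to 28.5 Hspa1b UMIs, with a median of 10 and a highest value of 138. In case fibroblasts the range was 2 to 35.8 with a median of 13. Smooth muscle cells were more even, with quartiles of 1 and 7 in control and 2 and 9 in case and medians of 3 and 5. The tenth of fibroblasts with most Hspa1b held 39.9% of its UMIs in control and 35.5% in case, and the tenth of smooth muscle cells 34.2% and 29.1%. At this depth 24.2% of control (interval 11.1 to 42.3) and 35.6% of case macrophages (25.6 to 46.6) had an Hspa1b UMI, so both shares lay well below the 83.3% and 85.9% of fibroblasts. Without thinning, the shares were 67.6% and 58.2% in macrophages and 93.5% and 92.6% in fibroblasts, at the depths given above.

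**Figure D4:**
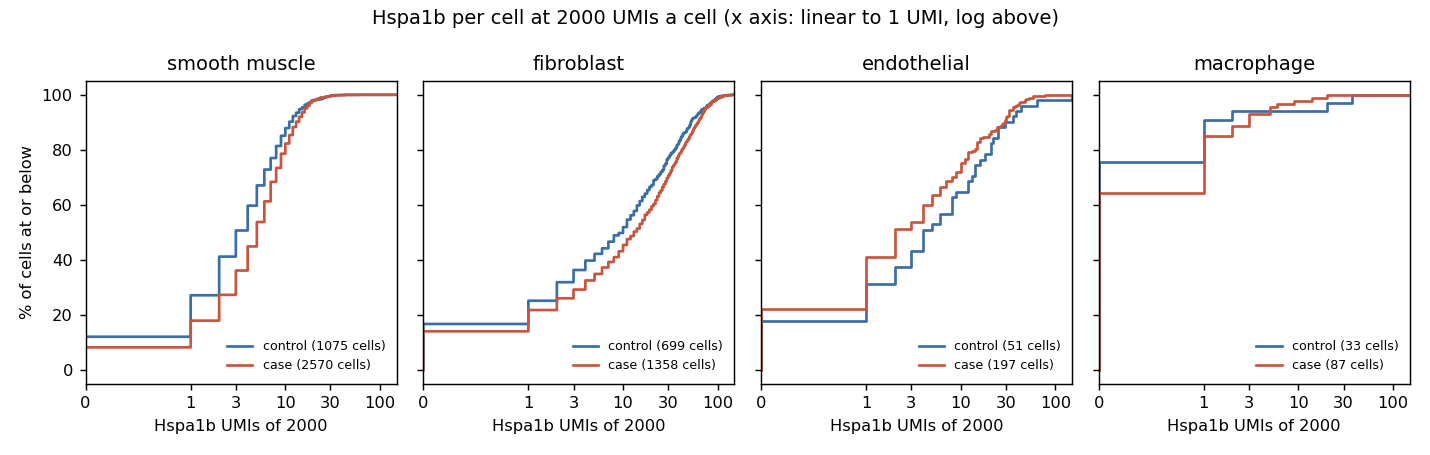
Percent of cells with at most the given number of Hspa1b UMIs at 2000 UMIs a cell, in 4 classes, control in blue and case in red. Smooth muscle curves climb steeply, with medians of 3 and 5, fibroblast curves are drawn out with medians of 10 and 13, and most macrophages are at 0.

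Within fibroblasts the levels of several heat shock genes went together from cell to cell. Over 699 control cells the Spearman rho of Hspa1b was 0.73 with Hspb1, 0.71 with Hspa8, 0.66 with Hsph1 and 0.55 with Dnajb1, and over 1358 case cells it was 0.66, 0.63, 0.57 and 0.51. In smooth muscle cells the same 4 values lay between 0.27 and 0.38. These cells held fewer UMIs of Hspa1b, Hspa8 and Hsph1 at equal depth, with a control mean of 4.97 Hspa1b UMIs against 19 in fibroblasts. The part of these sparser counts, or of differences between fibroblast clusters, in the rho values was not tested. Hspa5 and Cryab stood outside the group that went with Hspa1b, with a rho to it of 0.21 and 0.20 in control and 0.31 and 0.09 in case fibroblasts. The 4 genes that moved with Hspa1b all have a heat shock element core among the promoters shown above, and Hspe1, which has 3 matches, had a rho of 0.35 and 0.20. No promoter was given for Hspa1b or Cryab, and that of Hspa1a held no match. A link between the matches and these rho values was not tested. Cells of 1 library share its handling, and thinning to equal depth did not remove a relation to the original UMIs. In control fibroblasts the rho with original UMIs was -0.30 for Hspa1b, -0.29 for Hspb1, -0.20 for Hspa8, -0.18 for Dnajb1 and -0.05 for Hsph1. The rho values between genes are therefore a description.

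**Figure D5:**
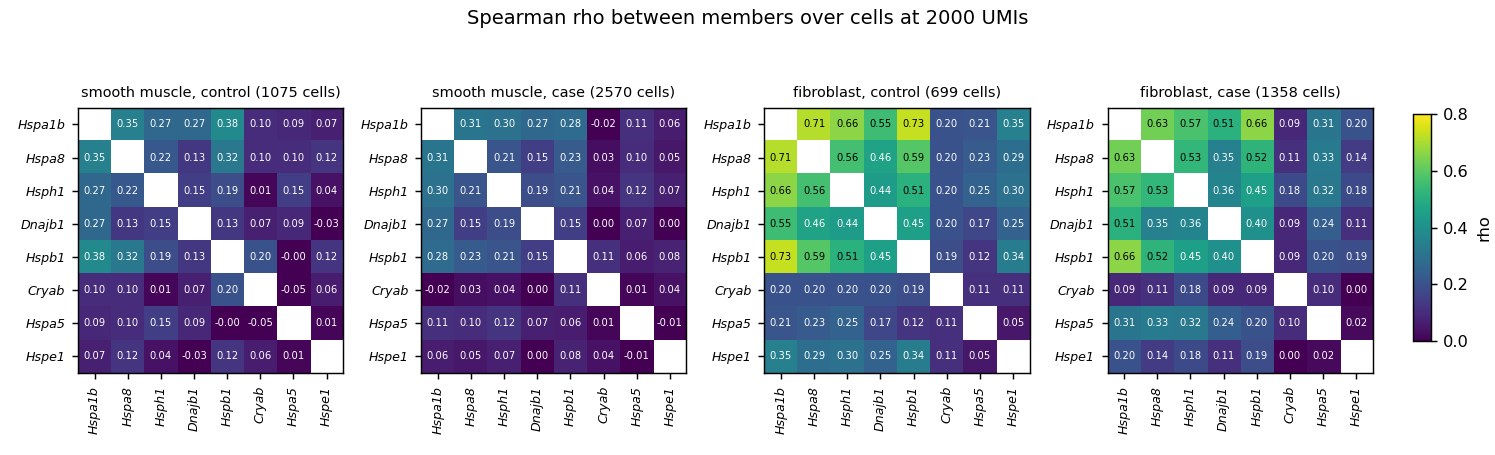
Spearman rho between the 8 genes over single cells at 2000 UMIs a cell, in smooth muscle cells and fibroblasts of each library (color from 0 to 0.8, values below 0 in the darkest color). Hspa1b, Hspa8, Hsph1, Dnajb1 and Hspb1 form a block in fibroblasts that reaches 0.73, and Cryab, Hspa5 and Hspe1 lie outside it.

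The Hspa1b level also moved with the immediate early genes. Its rho with their summed UMIs was 0.49 in control and 0.58 in case fibroblasts, and 0.39 and 0.49 in smooth muscle cells. Its rho with the original UMIs of the cell was -0.30 and -0.22 in fibroblasts, and the part of either measure in the differences between libraries was not tested. Cryab had a rho with the immediate early genes between -0.07 and 0.00 in these 4 groups of cells. Among 4138 genes in control smooth muscle cells, those most like Hspa1b were Ubb (0.42), a stress-inducible ubiquitin gene, Hspb1 (0.38), Hsp90ab1 (0.36), Hspa8 (0.35) and Gadd45b (0.32). In case smooth muscle cells they were Egr1 (0.43), Fos (0.41), Fosb (0.39), Btg2 (0.35) and Jun (0.35). For Cryab the most alike gene was Hspb1 in both libraries, at 0.20 and 0.11, which are weak values in sparse counts.

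The wider chaperone network was read by lists of genes, against the same shares of all genes, 7.68% higher and 15.4% lower in smooth muscle cells, 6.68% and 13.9% in fibroblasts, 18.3% and 25.3% in endothelial cells, and 15.7% and 16.7% in macrophages. The lists leave out the members given above, such as Hsph1, Hspe1 and Hspa5, so their counts do not cover these genes. All macrophage values of these lists and of the immediate early genes included the control barcode at the edge of the gate. They were not computed without it. In all 4 classes the calls in these lists were not repeated in bins of depth, in clusters or under other processing. Many member ratios in smooth muscle cells and fibroblasts changed in size or sign between bins of depth. Of the other HSP70 and HSP110 genes, 0 of 5 in smooth muscle cells and 0 of 4 in fibroblasts passed 1.5-fold. Hspa2 was at 562 and 409 CPM (-0.46) in smooth muscle cells. In endothelial cells Hspa2 was lower, at 1206 CPM in control and 476 CPM in case (-1.34, interval -1.52 to -1.16). In macrophages Hspa13 was lower at -0.89 (interval -1.79 to 0.01). The HSP90 family gave 0 of 2 in smooth muscle cells, fibroblasts and endothelial cells. Its cytosolic gene Hsp90ab1 was at 3179 and 3714 CPM in smooth muscle cells and 5612 and 6101 CPM in fibroblasts. In macrophages Hsp90ab1 was at 5475 and 3770 CPM (-0.54). Hsp90b1 of the endoplasmic reticulum was higher in case macrophages, at 526 and 861 CPM (0.71), and at 861 and 654 CPM (-0.40) in endothelial cells.

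Among the small heat shock genes, Hspb2 was lower in case smooth muscle cells, at 81.5 and 42.4 CPM (-0.94, interval -1.09 to -0.80), and Hspb6 was at 116 and 129 CPM. In fibroblasts Hspb8 was at 369 and 388 CPM. Of the J-domain proteins, Dnajc3 and Dnaja2 were lower in smooth muscle cells (-0.73 and -0.60) out of 10 genes, and 0 of 9 passed in fibroblasts. In endothelial cells Dnajb9, a J-domain protein of the endoplasmic reticulum, went from 491 to 1016 CPM (1.05), Dnajb6 was at 0.97 and Dnajc7 at -0.83. In macrophages Dnajc3 was at 0.92 (interval -0.04 to 1.98).

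The listed chaperonins were steady apart from Hspd1, the mitochondrial chaperonin that works with Hspe1. Hspd1 was higher in case smooth muscle cells, at 348 and 534 CPM (0.62, interval 0.57 to 0.67), and lower in case macrophages (-0.72), while 0 of 9 passed in fibroblasts and endothelial cells. The largest changes of the cytosolic chaperonin were Cct6a in endothelial cells (0.50) and Cct8 in macrophages (-0.50). Of 11 co-chaperones and heat shock factors in smooth muscle cells, 3 were higher and 0 lower, against 7.68% and 15.4% of all genes, namely Chordc1 (0.79) and Stip1 (0.63), which work with HSP90, and the transcription factor Hsf2 (0.74). In fibroblasts Chordc1 was higher (0.61) and Bag1 lower (-0.63). In endothelial cells Stub1 (-1.09), Ahsa1 (-0.95) and Hsbp1 (-0.59) were lower. TMM factors would add 0.24 to every endothelial log2 ratio, which would bring Hsbp1 within 1.5-fold. In macrophages Chordc1 (-0.84, interval -1.65 to -0.02) and St13 (-0.64, interval -1.14 to -0.14) were lower. Cdc37 was past 1.5-fold higher there at 0.69, on 23 and 69 UMIs, but not beyond counting error (interval -0.00 to 1.44).

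The list of folding in the endoplasmic reticulum and of the unfolded protein response was read in each class by itself, and differences between classes were not tested. In smooth muscle cells 0 of 13 were higher and 4 were lower, against 15.4% lower of all genes, namely Manf (116 and 64.2 CPM, -0.86), Pdia6 (-0.84), Calr (569 and 342 CPM, -0.74) and Pdia3. In fibroblasts Manf (-0.85) and Pdia6 (-0.70) were lower and 0 of 12 were higher, against 13.9% lower of all genes. In endothelial cells 1 of 13 was higher (Atf6, 1.05) and 3 were lower, Pdia3 (-0.93), Pdia6 (-0.88) and Manf, which was near the 25.3% lower of all genes. In macrophages 2 of 11 were higher and 0 were lower, against 15.7% higher and 16.7% lower of all genes. The higher count was thus near its share. Herpud1 went from 132 to 420 CPM (1.67, interval 1.17 to 2.22) and Pdia6 from 92.4 to 171 CPM (0.88). The median log2 change of the list in macrophages was 0.00, and its summed level was 5440 CPM in control and 5555 CPM in case. Of the 17 immediate early genes, 0 were higher in each of the 4 classes, and 3 of 15 were lower in smooth muscle cells (Jund, Klf6 and Ier3), 2 of 15 in fibroblasts (Junb and Klf6), 7 of 16 in endothelial cells and 8 of 15 in macrophages. The shares of all genes that were lower were 15.4%, 13.9%, 25.3% and 16.7% in the same order, and the smooth muscle and fibroblast counts were near them. The largest of these differences were Nr4a1 (-1.82) and Egr1 (-1.28) in macrophages and Fos (-1.29) in endothelial cells.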

How the data were processed

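The authors deposited 1 matrix of raw UMI counts over genes and barcodes. Its header gives Cell Ranger 3.1.0, and the labels name Seurat and the build Rnor_6.0. How reads of near-identical genes were assigned is not given in the sources used here. The control and case barcodes were told apart by the barcode numbers stated for the 2 libraries. The genes and lists were chosen with earlier results of these data known.

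Quality control removed barcodes with over 20% mitochondrial UMIs, those more than 2 SD from their library's mean log10 UMIs or log10 genes, and those whose gene number departed by over 3 robust SD from a line fitted to UMIs. Of the rest, 513 control and 40 case barcodes had under 1000 UMIs and took no class. Each class score was the marker UMIs per UMI over the median of the 20 highest barcodes. The others took the class with the highest score if this was at least 0.1, the next was at most 0.5 of it, and 3 markers were found. These rules left out 102 control and 241 case barcodes for a close next class or too few markers. They left out 91 and 230 more that were below the score. T cells (1 and 2) were too few. Scrublet marked 6 control and 0 case barcodes as doublets, too few to have worked, so doublets were left in.

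Levels are UMIs summed over cells per 1000000 UMIs, with Poisson intervals. Ratios have conditional binomial and shares Clopper-Pearson intervals, all covering counting error only. Named genes were all members, in each list the 3 with the largest change over the 4 classes, and, after their values were seen, other genes past 1.5-fold in short counts, levels beside them, and the leading genes of clusters. Thinning and clustering used seed 1. Clusters, made without the listed chaperone and immediate early genes, came from 2000 variable genes, 30 principal components, 20 neighbours and Leiden resolution 0.8. The count and gate steps were tested on simulated data. Software was Python 3.11.15, scipy 1.17.1, scanpy 1.11.5, R 4.3.3 and edgeR 4.0.16 (TMM factors only).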

Additional observations from a re-analysis of the deposited data

Results flagged for a closer look

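For 3 genes the change between case and control had opposite signs in 2 classes with intervals that excluded 0, although the difference between classes was not tested. Hspa1b was higher in case fibroblasts and lower in case macrophages, a log2 difference of 1.72, of which the macrophage side rested on 1 control barcode and the fibroblast side turned to -0.42 at 4000 to 10000 UMIs and to -0.26 at 10000 UMIs or more. Hsph1 was higher in case smooth muscle cells and lower in case macrophages, a difference of 1.16, but without the highest cell of each class and library its macrophage change was 0.07. Hspa5 was higher in case macrophages and slightly lower in case smooth muscle cells, a difference of 0.78, and with TMM factors the smooth muscle change was 0.08.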

How the results depend on the processing

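Of 32 ratios of 8 genes in 4 classes, 21 kept their sign in all 12 alternatives that give a ratio. These were 7 of 8 in smooth muscle cells, 6 in fibroblasts, 4 in endothelial cells and 4 in macrophages. The only bin of depth among the alternatives was 4000 to 10000 UMIs. Under 4000 UMIs, Hspa8, Hspb1, Hspe1 and Cryab turned from lower to higher in case smooth muscle cells and fibroblasts. The fibroblast intervals of Hspe1 and Cryab in that bin included 0. The macrophage ratio of Hspa1b turned to 0.43 when the next class was held to 0.25 of the first, to 1.01 with at least 2000 UMIs, to 1.09 at 4000 to 10000 UMIs and to 1.04 without the highest cell, and that of Cryab to 0.15 with at least 2000 UMIs and to 0.91 at 4000 to 10000 UMIs. The number of members lower in fibroblasts went from 1 to 2 with a score of 0.2, the next class at 0.25, classes from clusters, no barcode filter or barcodes of both libraries removed, and to 4 at 4000 to 10000 UMIs. Lower members in macrophages went from 5 to 1 with the next class at 0.25, at least 2000 UMIs or the highest cell removed, and to 3 at 4000 to 10000 UMIs or with genes of at least 200 CPM. Higher members in macrophages went from 1 to 2 with at least 2000 UMIs or the highest cell removed, and to 0 when each cell weighed the same. Lower members in endothelial cells went from 3 to 0 with TMM factors. The cause of these moves was not tested, beyond the single barcode named above. Removing barcodes found in both libraries and the highest cells was chosen after seeing the data. Removing doublets was not run, since too few were marked. Shares of cells scale with depth, and 52 of 64 at 1000 UMIs and 57 of 64 without thinning lay outside their interval at 2000 UMIs. With 1 pooled library a group, no interval here covers differences between rats, surgeries or library preparations. Both arteries came from the same 2 rats, but no paired analysis was possible because the rats were pooled in each library.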
